A study of Drosophila melanogaster with 6 samples.

Results

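The enzymes that supply deoxyribonucleotides for DNA synthesis were followed in eye-antennal imaginal discs, larval epithelia that later give rise to the eye, the antenna and parts of the head of the fly. They are encoded by 5 genes, taken by their symbols from the 16727 genes of the deposited table: RnrS, RnrL, dnk, Ts and dUTPase. Transcripts were counted by 3′ tag sequencing in Drosophila melanogaster larvae of genotype y w at 11 days after egg laying, when disc growth had ended, and at 5 days after egg laying, when the discs were still growing. Each day had 3 libraries, each from at least 30 pooled discs. All larvae were reared at 25 °C on a food made from a yeast strain with a deleted erg2 gene, which cannot make the sterol precursors of the moulting hormone, so that the larvae of both days did not pupate. The days therefore differ in larval age and in time on this food as well as in growth, and these cannot be told apart.

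Deoxyribonucleotides are the building blocks of DNA, and cells make most of them only while they copy their genome. Ribonucleotide reductase, a complex of a large subunit with the catalytic and regulatory sites and a small subunit with an iron-bound radical, turns ribonucleotides into deoxyribonucleotides. dUTPase splits dUTP, which keeps uracil out of DNA and provides dUMP, and thymidylate synthase converts dUMP into dTMP with a folate cofactor. The deoxynucleoside kinase of the fly, a single enzyme that accepts every natural deoxynucleoside, salvages deoxynucleosides by phosphorylating them. In flies RnrS is a known target of the transcription factor E2F and is used as a marker of cells entering S phase in the eye disc, and dUTPase is known to be present in imaginal discs while most larval tissues lack it.

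Total counts were 7670180 to 9049513 per library at day 11, against 6542782 to 7950251 at day 5. Levels are given as CPM, the counts divided by the TMM-scaled library total, and 3 counts, taken as the floor, stood for 0.321 to 0.46 CPM. Each gene was tested with the edgeR quasi-likelihood test, day 11 over day 5, and called where the Benjamini-Hochberg adjusted p over the 8010 genes tested was below 0.05. Transcripts of 2 non-coding genes on the X chromosome, CR40469 and CR34335, took 26.3%, 40.8% and 39.6% of the counts in the day 11 libraries and 14.4%, 19% and 16.3% in the day 5 libraries. This share moved with the day, and its part in the results was not tested. Day 11 replicate 1 stood apart from the other libraries of its day (chi-square per degree of freedom 86.7 and 67.3, against 8.45 between the other two). This chi-square was taken on raw counts set against library totals, with CR40469 and CR34335 included. It is therefore not independent of their share. The labels do not state whether the replicate libraries stem from separate cultures, and the p-values cover only their spread, which may be technical. All 11 listed markers of the eye-antennal disc were detected, 5 of them lower at day 11 and none higher, and their summed level was 2083 to 2701 CPM at day 11 and 2648 to 2777 CPM at day 5. Most of that sum came from hth, with 1509.7 to 1900 CPM at day 11 and 1695 to 1845 CPM at day 5, which was not called (log2 fold change -0.10), while the eye genes dac, ato and eya fell (-2.54, -2.99 and -1.49). Of the 11 markers 6 were not called, among them hth and the eye gene toy (-0.37, edgeR adjusted p = 0.116). Beside this list and the marker lists below, 17.9% of all genes tested were called lower and 19.1% higher.

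All 5 deoxyribonucleotide supply genes fell at day 11, and for each of them every day 11 library lay below every day 5 library. Among all genes tested, 37% were called, 17.9% as lower and 19.1% as higher at day 11; 6.67% were called and at least 2-fold lower, and 25.2% had all day 11 libraries below all day 5 libraries. The 5 genes stood at 19.8% to 44.2% of their day 5 level at day 11, and their median log2 fold change was -1.81, against -0.0065 over all genes tested. Their summed level was 188.8, 234.3 and 213 CPM in the day 11 libraries and 574.5, 594.9 and 584.5 CPM in the day 5 libraries. All 5 passed the filter on low counts. Without day 11 replicate 1, the log2 fold changes of RnrS, RnrL, dnk, Ts and dUTPase were -2.29, -1.34, -1.65, -1.88 and -1.12, and scaling by total counts alone gave -2.61, -1.77, -2.10, -2.53 and -1.46, with each gene called lower in both settings. In bulk tissue, fewer cells that express a gene and less RNA in each such cell cannot be told apart.

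**Figure D1:**
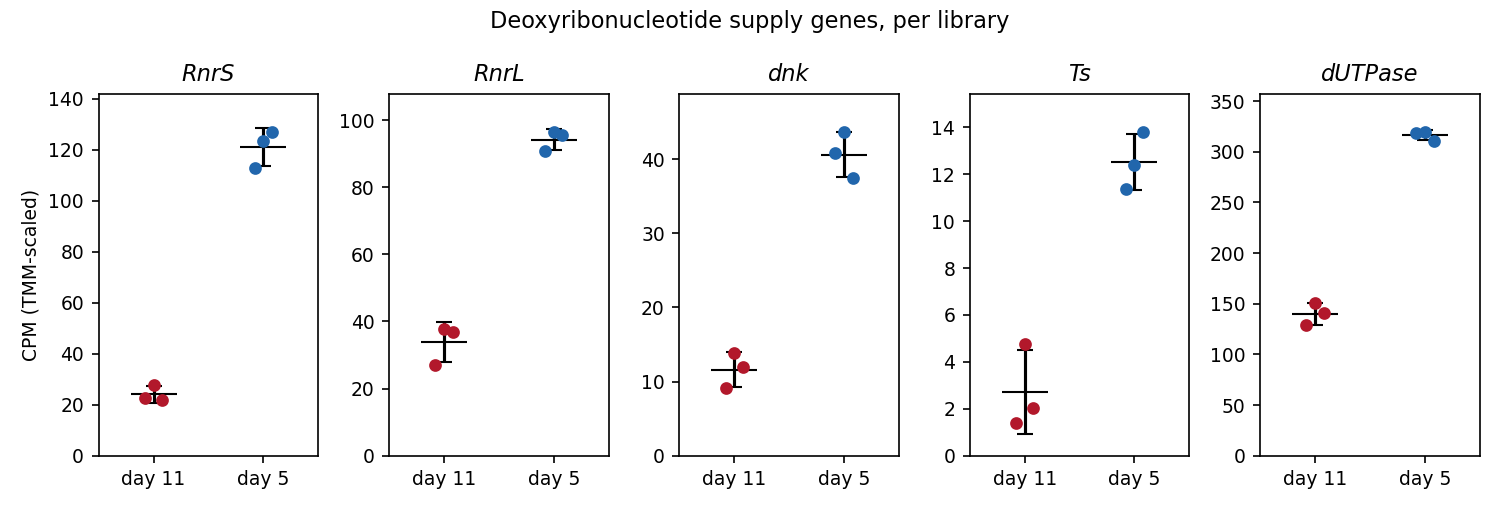
Level of each deoxyribonucleotide supply gene in CPM (TMM-scaled, linear axis from 0) in the 3 libraries of day 11 (red) and the 3 of day 5 (blue). Points are libraries, horizontal bars means and vertical bars SD. In every panel all day 11 points lie below all day 5 points, with Ts at 1.39 to 4.77 CPM at day 11.

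RnrS, which encodes the small subunit of ribonucleotide reductase (FBgn0011704, chromosome arm 2R, 1 annotated transcript of 1593 nt), had 22.5, 27.7 and 21.8 CPM in the day 11 libraries, against 113, 123 and 127 CPM in the day 5 libraries. The libraries of each day lay close together, and the lowest day 5 library exceeded the highest day 11 library 4.07-fold, the widest such gap among the 5 genes. The log2 fold change was -2.34 (SE 0.15, 95% interval -2.66 to -2.01, edgeR adjusted p = 9.39e-07), a level 5.05-fold lower at day 11 (interval 4.03 to 6.32). It was the 59th most negative of the 8010 log2 fold changes. These values rest on 540 counts at day 11 and 2878 counts at day 5.

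RnrL encodes the large, catalytic subunit (FBgn0011703, chromosome 2L from 10325026 to 10327943, minus strand, 1 transcript of 2577 nt). It had 27.1, 37.7 and 36.8 CPM at day 11, against 90.8, 96.4 and 95.5 CPM at day 5. Day 11 replicate 1 was the lowest library, and the days did not overlap. The log2 fold change was -1.48 (SE 0.16, 95% interval -1.82 to -1.14, edgeR adjusted p = 3.81e-05), a level 2.79-fold lower at day 11.

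The balance of the 2 subunit genes differed between the days in every library. Within a library the count of RnrS was 0.83, 0.735 and 0.594 times that of RnrL at day 11, against 1.24, 1.28 and 1.33 times at day 5. The ratio was above 1 in every day 5 library and below 1 in every day 11 library. Its log2 value averaged -0.49 ± 0.25 at day 11 and 0.36 ± 0.048 at day 5 (SD, n = 3 for each day), a change of -0.85 with exact permutation p = 0.1, two-sided. With 3 against 3 libraries 0.1 is the smallest p this test can give, so no ratio could pass a threshold of 0.05. A ratio within a library does not depend on the scaling between libraries, but a trend of fold changes with transcript length need not cancel in it. Its size is no ratio of molecules, since the transcripts may be primed and counted with unlike efficiency.

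dUTPase (FBgn0250837, chromosome 2L from 11011312 to 11012135, plus strand) is annotated with 4 transcripts of 732 to 824 nt, which encode proteins of 174 or 188 residues. They share their start and their 3′ end, so that 3′ tags do not separate them. The gene had 129, 150.3 and 140.4 CPM at day 11, against 319, 319 and 311 CPM at day 5, and the libraries of each day varied by a CV of 7.74% at day 11 and 1.46% at day 5. Its fall was the smallest of the 5 (log2 fold change -1.18, SE 0.12, 95% interval -1.44 to -0.92, edgeR adjusted p = 2.72e-05), a level 2.26-fold lower at day 11. It was also the shortest transcript of the 5, with a median of 760.5 nt. Fold changes of all genes followed transcript length in these libraries, and with that trend removed the log2 fold change of dUTPase was -0.76 (edgeR adjusted p = 0.000569). An annotated antisense RNA, asRNA:CR45778, covers the whole gene on the other strand and was not analysed here. No source used here states whether the counting used strand, and without it reads from this RNA and from dUTPase cannot be told apart.

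Ts, the thymidylate synthase gene (FBgn0024920, chromosome 2L from 2968293 to 2969638, minus strand, 1 exon), was near the lower end of what these libraries resolve. The day 11 libraries held 13, 31 and 14 counts, and the day 5 libraries 86, 103 and 109 counts. This came to 1.39, 4.77 and 2.04 CPM at day 11, against 11.4, 12.4 and 13.8 CPM at day 5. Every day 11 value lay above the floor and below every day 5 value. Day 11 replicate 2 stood higher than the other day 11 libraries, with an exact Poisson 95% interval of 3.24 to 6.76 CPM that lay apart from that of replicate 1, 0.741 to 2.38 CPM. These intervals cover counting error only.

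The log2 fold change of Ts was -2.23 (SE 0.39, 95% interval -3.08 to -1.38, edgeR adjusted p = 0.00106), a level 4.69-fold lower at day 11 with an interval of 2.61 to 8.43. Leaving out day 11 replicate 2 gave -2.88, and leaving out day 11 replicate 1 gave -1.88. The last 142 bases of the longer of its 2 annotated transcripts overlap the 3′ end of Rbp9, a gene for a neuronal RNA-binding protein on the opposite strand, while the shorter transcript ends outside Rbp9. Rbp9 had 62, 58 and 33 counts at day 11 and 28, 49 and 67 counts at day 5 and was not called (log2 fold change 0.17, 95% interval -0.61 to 0.94, edgeR adjusted p = 0.744). The sources used here do not say how reads in the overlap were counted, and their part in the level of Ts was not tested.

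dUTPase makes the dUMP that thymidylate synthase uses, and the levels of the 2 genes parted. Within a library the count of dUTPase was 89.1, 31.1 and 66.7 times that of Ts at day 11, against 27.9, 25.6 and 22.5 times at day 5. All day 11 ratios were higher than all day 5 ratios, but that of day 11 replicate 2 stood close to day 5. The log2 change was 1.18 (exact permutation p = 0.1, two-sided). Leaving out day 11 replicate 2 gave 1.61, and leaving out day 11 replicate 1 gave 0.85.

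dnk encodes the deoxynucleoside kinase of the salvage route (FBgn0022338, chromosome 3R from 18980995 to 18982749, plus strand). Its 2 annotated transcripts encode the same length of protein, 250 residues. It had 9.1, 13.8 and 11.9 CPM at day 11, against 40.8, 43.6 and 37.4 CPM at day 5. The days lay far apart beside the spread within each day. The log2 fold change was -1.81 (SE 0.18, 95% interval -2.21 to -1.41, edgeR adjusted p = 2.72e-05), a level 3.52-fold lower at day 11. Its first 330 bases overlap the start of Smu1 on the other strand, away from the 3′ end where tags are expected. Smu1 had a smaller log2 fold change of -0.58 (edgeR adjusted p = 0.0339).

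The balance of the salvage kinase gene and the gene of the small reductase subunit also differed between the days. The count of dnk was 0.406, 0.501 and 0.548 times that of RnrS at day 11, against 0.362, 0.354 and 0.296 times at day 5. The days did not overlap, and the log2 change was 0.52 (exact permutation p = 0.1, two-sided). Over all 10 pairs of the 5 genes, 7 ratios did not overlap between the days, and the smallest p adjusted over the 10 pairs was 0.143. The 10 ratios share the same 5 genes and are not independent. How often ratios of other genes part between the days was not computed, nor were the ratios with the transcript length trend removed. In that setting the log2 fold changes of RnrS, RnrL, dnk, Ts and dUTPase were -2.26, -1.54, -1.60, -2.03 and -0.76. Those of RnrL and dnk then lay closer together, and those of RnrL and dUTPase farther apart, than in the main test. The ratio of RnrS to Ts overlapped between the days, with a log2 change of 0.018 ± 0.73 (the larger SD of the 2 days, that of day 11), as did those of RnrL to Ts and of dnk to Ts, where the spread of Ts at day 11 was wide.

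**Figure D2:**
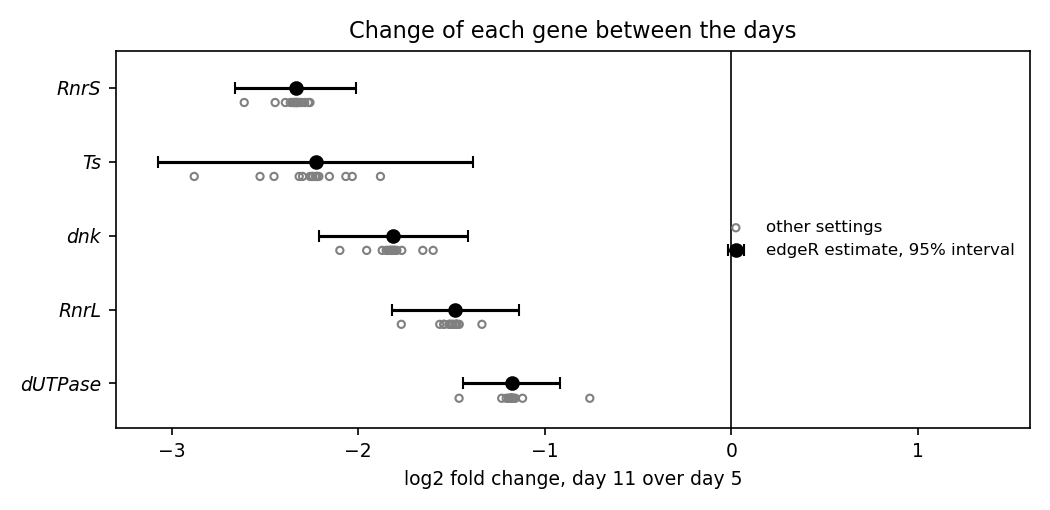
Log2 fold change, day 11 over day 5, of the 5 genes from edgeR (black points, with 95% intervals) and under 16 other settings each (open grey points). All points lie left of 0. RnrS at -2.34 and Ts at -2.23 stand at the low end and dUTPase at -1.18 at the high end, with -0.76 as its value when the transcript length trend was removed.

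**Figure D3:**
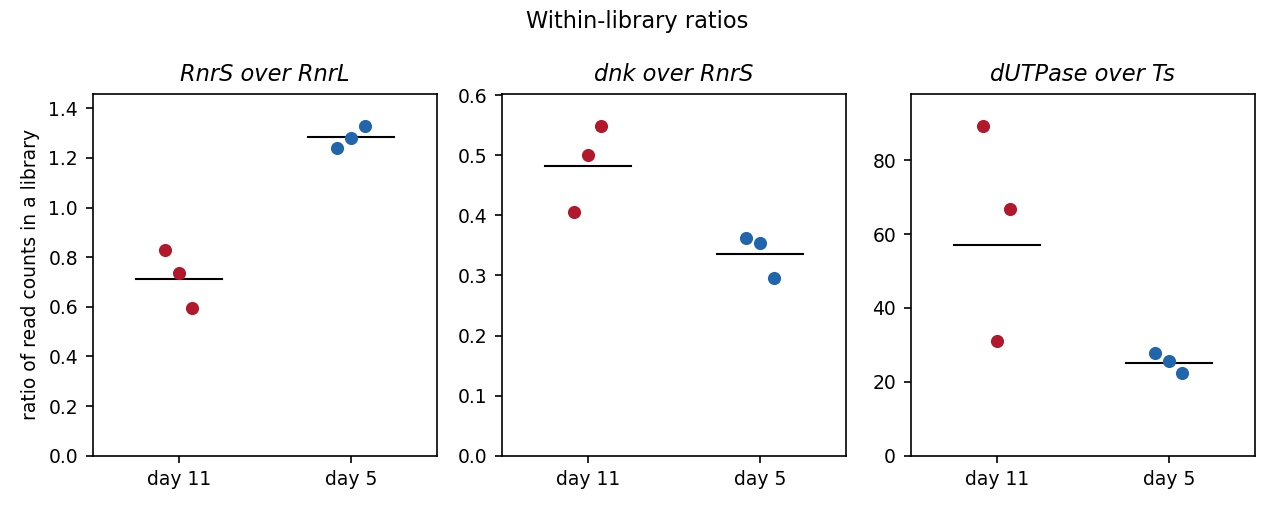
Ratios of read counts of gene pairs within each library (linear axes from 0), day 11 in red and day 5 in blue, with the geometric mean of each day as a line. RnrS over RnrL was 0.594 to 0.83 at day 11 and 1.24 to 1.33 at day 5, and the day 11 points of dUTPase over Ts spread from 31.1 to 89.1.

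The order of the day 11 libraries was alike in part over the 5 genes. Replicate 2 held the highest level of each of the 5, and replicate 1 the lowest of RnrL, dnk, Ts and dUTPase. The exact Poisson 95% intervals of replicates 2 and 3 overlapped for each of the 5 genes. The spread also differed, with a CV at day 11 of 7.74% for dUTPase and 65.6% for Ts. Replicate 2 also had the highest summed level of fat body markers at day 11, 1068 CPM against 86.5 and 128.5 CPM in the other day 11 libraries, and of haemocyte markers, 314.5 CPM against 97.5 and 171.2 CPM. In the day 5 libraries fat body markers summed to 780.3, 361.3 and 75.3 CPM, and haemocyte markers to 53.5, 64.9 and 75.1 CPM. Of the 7 haemocyte markers 3 rose and none fell among the 5 tested, and no fat body marker was called. The fat body marker Lsp1alpha (log2 fold change -2.30) was called lower in 4 of 16 other settings. The haemocyte count was 1 without day 5 replicate 1 or day 5 replicate 2, 2 without day 11 replicate 3, 5 without day 11 replicate 1 and 1 under limma-voom. The haemocyte marker Cg25C (log2 fold change 1.70) kept its call in all 16 other settings.

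The markers of the salivary gland and of the ring gland differed in direction. All 6 salivary glue genes had higher levels in every day 11 library than in every day 5 library, with Sgs3 at 33.1, 30.9 and 408.1 CPM at day 11, against 4.1, 5.42 and 2.4 CPM at day 5, and 2 of them, Sgs1 and Sgs4, were called. The ring gland genes phm, sad and nvd had negative log2 fold changes that were not called (-2.34, -2.90 and -1.64), and in day 5 replicate 3 they stood at 83.2, 46.4 and 23 CPM. The list of 9 tested genes had 2 called, both higher, but none without day 11 replicate 1, 6 without day 11 replicate 3 and 1 without any other single library.

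Brain and neuroblast markers summed to 600.6 to 844.8 CPM at day 11 and 441.7 to 528.7 CPM at day 5, mostly from brat, and 3 of 5 tested rose while none fell. Scaling by total counts alone called 1 higher and 1, dpn, lower (log2 fold change -0.89, edgeR adjusted p = 0.0189). Correcting for transcript length left 1 called higher, and brat and pros lost their calls in both settings. Leaving out any single library except day 11 replicate 3 left 2 called. The marker insc (log2 fold change 1.38) kept its call in all 16 other settings. The neuroblast genes ase and wor averaged 0.321 and 0 CPM at day 11 and 0.259 and 0.132 CPM at day 5. Tracheal markers summed to 610.1 to 798.5 CPM at day 11 and 311.3 to 388.4 CPM at day 5, muscle markers to 162.2 to 222 CPM at day 11 and 225.1 to 640.2 CPM at day 5, and glial markers to 161 to 181.7 CPM at day 11 and 204.2 to 215.1 CPM at day 5. Most of the tracheal sum came from serp and verm, with means of 601 and 129 CPM at day 11 and 242 and 97.1 CPM at day 5. The tracheal genes btl and trh averaged 1.00 and 1.06 CPM at day 11 and 0.468 and 0.939 CPM at day 5 and were not tested. Of the tested markers, 1 of 2 tracheal, 1 of 6 muscle and 1 of 4 glial genes rose, and 1 muscle and 1 glial gene fell. Among all genes tested 17.9% were called lower and 19.1% higher, and marker counts near these shares are not read as results about a cell type. The muscle gene that fell, Mhc, lost its call when any single day 11 library was left out (-1.71, -1.77 and -1.49 without replicates 1, 2 and 3), and 2 muscle genes were lower without day 5 replicate 1 or day 5 replicate 2. Under a replicate block, the DESeq2 Wald test, no robust shrinkage or total counts alone 3 were lower. The glial gene that rose, moody, lost its call in 8 of 16 other settings, among them those without day 11 replicate 1 (0.42) and without day 5 replicate 1, 2 or 3 (0.49, 0.65 and 0.52), and 2 glial genes were lower without day 11 replicate 1. Both tracheal genes were higher without day 5 replicate 2. The tracheal gene serp and the muscle gene Mef2, both higher, and the glial gene Gli, lower, kept their calls in all 16 other settings (1.32, 0.91 and -0.84 in the main test). The part of these cell types in the changes of the 5 genes was not tested. The 5 genes were called lower without each single library in turn.

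Around these enzymes, the genes of the thymidylate and folate cycle fell in part. Of 6 genes counted and tested, with Ts among them, 3 fell and none rose, and their median log2 fold change was -1.10. Scaling by total counts alone called 5 of them lower. Beside this list and those below, 17.9% of all genes tested were called lower and 19.1% higher. In lists of few genes, counts near these shares are not read as results about the list. Nmdmc, which encodes a mitochondrial folate enzyme, had 7.7, 7.84 and 5.81 CPM at day 11, against 18.8, 19.9 and 21.4 CPM at day 5 (log2 fold change -1.49, SE 0.21, edgeR adjusted p = 0.000238). CG5757 averaged 15.3 ± 2.67 CPM at day 11 and 33.1 ± 2.28 CPM at day 5 (SD, n = 3 a day; log2 fold change -1.10, edgeR adjusted p = 0.000554). In both genes the days did not overlap. The serine hydroxymethyltransferase gene Shmt, listed as CG3011, was not called (log2 fold change -0.35, edgeR adjusted p = 0.0928).

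Ribonucleotide reductase is kept active by thioredoxin or glutaredoxin. Of 7 genes listed for this, 3 were tested, and 1 fell while none rose; their median log2 fold change was -0.56. Without day 11 replicate 2, 2 were called lower. The thioredoxin gene Trx-2 had 159, 231 and 213.3 CPM at day 11, against 402.5, 510 and 349.6 CPM at day 5, with no overlap (log2 fold change -1.07, SE 0.17, edgeR adjusted p = 0.000763). Trxr-1, which encodes the reductase that recharges thioredoxin, was not called (0.13, 95% interval -0.17 to 0.43), nor was the glutaredoxin gene Grx1, listed as CG6852 (-0.56, 95% interval -1.13 to 0.023).

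Nucleotide kinases add the further phosphates. Of 8 tested, 2 fell and none rose, with a median log2 fold change of -0.14. The nucleoside diphosphate kinase gene awd, whose enzyme makes triphosphates from diphosphates, had 351.2, 527.4 and 510.7 CPM at day 11, against 1182, 1277 and 1284 CPM at day 5. It fell by 1.43 on the log2 scale (log2 fold change -1.43, SE 0.15, edgeR adjusted p = 4.07e-05), and Ak6 had -1.04 (SE 0.20, edgeR adjusted p = 0.00213). The UMP-CMP kinase gene Dak1 was not called (0.21, 95% interval -0.09 to 0.51).

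In the salvage and transport list dnk was the only called gene among 8 tested of 17 listed, and the median log2 fold change of the 8 was 0.082. That median was -0.20 under scaling by total counts alone, which called 3 of the 8 lower, and 2 were called lower without day 11 replicate 2. A gene of this list was called higher in each of 2 settings, Adgf-A without day 11 replicate 1 (1.51) and the nucleoside transporter gene Ent3 without day 5 replicate 1 (2.63). The adenosine kinase gene AdenoK had -0.33 (95% interval -0.67 to 0.0015, edgeR adjusted p = 0.109) and Mtap, which encodes an enzyme of adenine salvage, -0.40 (95% interval -0.75 to -0.055, edgeR adjusted p = 0.0662). The secreted adenosine deaminase gene Adgf-A stood at 3.2 ± 1.19 CPM at day 11 and 1.36 ± 0.459 CPM at day 5 (SD, n = 3 a day) and was not called with all libraries (log2 fold change 1.21, edgeR adjusted p = 0.0794).

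Genes for making ribonucleotides, the substrates of the reductase, did not move one way. Of 13 tested, 3 rose and 4 fell, with a median log2 fold change of -0.37. r, which encodes the enzyme of the first steps of pyrimidine synthesis, had 57.7, 65.3 and 62.7 CPM at day 11, against 40.2, 43.1 and 38 CPM at day 5 (log2 fold change 0.61, SE 0.13, edgeR adjusted p = 0.00403). r-l, for the last steps of UMP synthesis, had 13.4, 13.5 and 8.14 CPM at day 11, against 22.9, 22.4 and 28.2 CPM at day 5 (log2 fold change -1.06, SE 0.22, edgeR adjusted p = 0.00296). These 2 genes of 1 route lay on opposite sides, with no overlap between the days in either.

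Of the purine genes, ade5 rose (0.63, SE 0.18, edgeR adjusted p = 0.0187) and ade3 fell (-0.65, SE 0.19, edgeR adjusted p = 0.0196). Scaling by total counts alone called none of the ribonucleotide synthesis genes higher and 6 lower, and it gave 865 higher and 2207 lower genes among all tested, in place of 1533 higher and 1432 lower. Under it the median over all genes stood at -0.28. Leaving out a single library left 1 of these genes called higher without day 5 replicate 1, and 1 higher and 1 lower without day 5 replicate 2, while 2 were lower without day 11 replicate 3 and 2 without day 5 replicate 3. ade3 was then not called without day 11 replicate 3 (-0.49) and day 5 replicate 2 (-0.55), nor ade5 without day 5 replicate 1 (0.51) and day 5 replicate 2 (0.58). With the transcript length trend removed 1 was higher, and r was not called (0.36).

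Mitochondrial DNA is copied outside S phase as well, and its genes were counted for comparison. Of 6 tested, 2 rose and 1 fell, with a median log2 fold change of 0.30. TFAM, which packages mitochondrial DNA, had 45.1 ± 5.2 CPM at day 11 and 71.5 ± 6.13 CPM at day 5 (SD, n = 3 a day; log2 fold change -0.67, edgeR adjusted p = 0.00376). The mitochondrial RNA polymerase gene mtRNApol and the topoisomerase gene Top3alpha had 0.75 and 0.57, calls lost in 7 and 6 of 16 other settings, and neither was called without day 11 replicate 1 (0.58 and 0.51), day 11 replicate 3 (0.84 and 0.58) or day 5 replicate 1 (0.65 and 0.59). mtRNApol was also not called without day 5 replicate 3 (0.70), nor Top3alpha without day 5 replicate 2 (0.42). Rim2, a mitochondrial pyrimidine nucleotide carrier gene, was not called (0.34, 95% interval -0.082 to 0.76). mtSSB and DNApol-gamma35, which cells in general use, were listed at or near 0 on both days, and this is not read as absence.

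The replication markers fell with the supply genes. Of 14 tested, 12 were lower and none higher, with a median log2 fold change of -1.09. Among them PCNA, the sliding clamp gene, had 75.4, 70.6 and 66.9 CPM at day 11, against 196, 211.3 and 248.6 CPM at day 5 (log2 fold change -1.62, 95% interval -1.92 to -1.32). Claspin, Mcm7 and dup, a checkpoint, a helicase and a licensing gene, had -2.14, -1.60 and -1.70. RnrS at -2.34 lay below each of the 14 values, though its interval overlapped those of Claspin, dup and DNApol-alpha180. The differences between RnrS and these markers were not tested.

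Of the E2F and G1-S regulators 3 of 8 were lower and none higher, with a median log2 fold change of -0.34. E2f, the gene of the activating E2F protein, had 679.6, 440.9 and 505.3 CPM at day 11, against 664.1, 618.3 and 684.7 CPM at day 5. The days overlapped, and E2f was not called with all libraries (-0.27, 95% interval -0.61 to 0.057). Without day 11 replicate 1 it was called lower. The retinoblastoma family genes Rbf and Rbf2 fell (-0.72, SE 0.18, edgeR adjusted p = 0.00715, and -1.02, SE 0.28, edgeR adjusted p = 0.0147), as did cdc2c, the Cdk2 gene (-0.92, SE 0.25, edgeR adjusted p = 0.0124). The cyclin-dependent kinase inhibitor gene dap was not called (-0.37, edgeR adjusted p = 0.0573). Without day 11 replicate 1, 6 of the 8 were called lower, with E2f and dap among them. The call of Rbf2 was lost without day 5 replicate 1 (-0.92) and day 5 replicate 2 (-0.97), and that of cdc2c without day 11 replicate 3 (-0.73) and day 5 replicate 3 (-0.68).

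**Figure D4:**
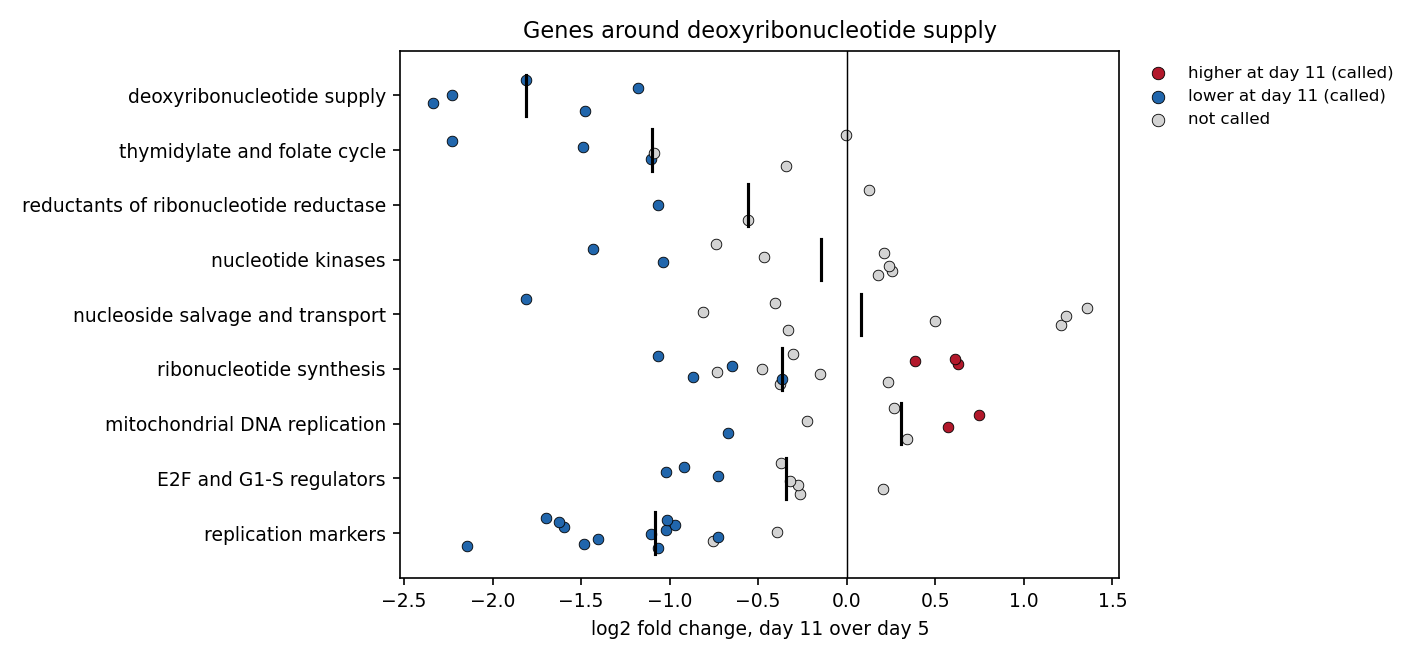
Log2 fold change, day 11 over day 5, of each tested gene in the lists around deoxyribonucleotide supply (red, called higher; blue, called lower; grey, not called), with the median of each list as a vertical line. The 5 supply genes have a median of -1.81 and the 14 replication markers of -1.09, and Ts and dnk appear in 2 rows each.

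Genes were also ranked by how like their profile over the 6 libraries was to each supply gene, as the Euclidean distance between log2 CPM centred on each gene's mean, among genes of at least 20 CPM on average. This is a description of 6 libraries, in which the day dominates. Closest to RnrS were the amino acid transporter gene path (distance 0.391), Claspin (0.421) and WRNexo, a gene for an exonuclease (0.446). Closest to RnrL was awd (0.103), followed by the elongation factor gene eEF1delta (0.181) and CG4038 (0.209). Closest to dnk were asf1, for a histone chaperone (0.238), RPA3, for a subunit of the single-strand DNA binding complex (0.291), and hoip, for a snoRNP protein (0.319).

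dUTPase had its closest profiles in the actin gene Act42A (0.119), CG13096 (0.152) and the cyclophilin gene Cyp1 (0.16). Those closest to Ts lay farther off, with snoRNA:Me28S-G3253 at 0.792, mnd, another amino acid transporter gene, at 0.81 and path at 0.906. Among the 5 genes themselves the closest pairs were RnrL with dnk (0.438) and RnrL with dUTPase (0.449), and the most distant was Ts with dUTPase (1.68). The 2 reductase subunit genes lay 1.09 apart, farther than RnrS from dnk (0.75) or from Ts (0.941).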

How the data were processed

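The submitters used a QuantSeq forward 3′ library kit on polyadenylated RNA, per the labels' protocols. The deposited table holds raw read counts for each gene and library, without normalization. The submitters' processing notes name FastQC, cutadapt, STAR 2.6.1d and the build dm6; no source used here gives the annotation, the counter, its use of strand or how it treated reads matching several places. Coordinates (1-based) and transcripts are from the Ensembl annotation in dm6 coordinates.

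After filterByExpr and TMM scaling, genes were tested with edgeR 4.0.16 (R 4.3.3; quasi-likelihood, robust shrinkage), two-sided, over 8010 genes; SE and 95% intervals come from the same statistic. Replicates differed by more than sampling noise (chi-square per degree of freedom 8.45 to 86.7), so none was taken as a duplicate. Ratios used counts with 0.5 added and an exact permutation test. Steps were tested on simulated data. Members and lists were chosen with earlier results of these data known. Of each list, the 4 genes of lowest p and the 2 of highest level could be named. Outside this rule fall ase, wor, mtSSB, DNApol-gamma35, DNApol-alpha180, CNT2, Adgf-D, Ent1, Ent3, phm, sad, nvd, btl and trh. Those genes were chosen after their values were seen. A gene first placed on a list is not reported here and was left out of its counts. Alternatives were other scalings, filters and tests (DESeq2 1.42.0, limma-voom 3.58.1), a replicate block, a length correction and each library left out.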

Additional observations from a re-analysis of the deposited data

How the results depend on the processing

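All 5 genes kept their direction and their call in each of 16 other settings. The log2 fold change ranged from -2.61 to -2.26 for RnrS, -1.77 to -1.34 for RnrL, -2.10 to -1.60 for dnk, -2.88 to -1.88 for Ts and -1.46 to -0.76 for dUTPase, and the largest adjusted p was 0.00852, for Ts without day 11 replicate 3. The count of called genes was 2202 to 3139 in these settings, against 2965.

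Deviations of same-numbered libraries from their day means had correlations of 0.0497, 0.194 and -0.0858. Those of libraries with unlike numbers ran from -0.23 to 0.166. With 3 libraries a day these values cannot exclude a pairing, and the main test used none. With the replicate number as a block the values were -2.34, -1.49, -1.82, -2.32 and -1.18 for RnrS, RnrL, dnk, Ts and dUTPase, and 2940 genes were called. The 3 ratios were computed in fewer settings: with 2 added to the counts, with the block and with each library left out. They kept their direction in each of these. When a library was left out the changes were -0.96 to -0.71 for RnrS to RnrL, 0.43 to 0.64 for dnk to RnrS and 0.85 to 1.61 for dUTPase to Ts. Over the 3 same-numbered pairs as a block the changes were -0.85, 0.52 and 1.18 with exact sign-flip p = 0.25, the smallest possible. Depth limits Ts most, with 58 counts in all at day 11.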

Other observations

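Some transport and salvage genes were below the count filter and were not tested. CNT2, a concentrative nucleoside transporter gene listed as CG8083, averaged 0.648 ± 0.0887 CPM at day 11 and 0.0422 ± 0.073 CPM at day 5 (SD, n = 3 a day), and Adgf-D averaged 0.697 ± 0.0719 CPM at day 11 and 0.0843 ± 0.146 CPM at day 5. Ent1, an equilibrative nucleoside transporter gene, averaged 0.0997 ± 0.0864 CPM at day 11 and 0.466 ± 0.091 CPM at day 5. The lower day of each gene lay below the floor of 3 counts in every library, so no fold is given.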
